A study of Sus scrofa with 6 samples.

Results

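The 10 genes examined here are POU5F1, SOX2, NANOG, KLF4, KLF5, KLF17, LIN28A, SALL4, OTX2 and PRDM14, a set of pluripotency and early embryo regulators listed by name. Of these, 6 were found by name among the 17678 genes of the deposited table, namely SALL4, LIN28A, KLF5, SOX2, KLF17 and PRDM14. Another 3, OTX2, KLF4 and NANOG, stand in the table without a name and were found by their Ensembl identifier, so their values are given beside the named genes and apart from them in the counts. POU5F1 was matched neither by name nor by identifier and is not analysed here. It is annotated by RefSeq on chromosome 7 of Sscrofa11.1 from 23564654 to 23570691.

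Porcine oocytes at metaphase II were injected with negative control siRNA (NC) or with a mix of 3 siRNAs against SIN3A (KD), activated parthenogenetically and collected as 2-cell embryos after 32 h. Each group had 3 replicates, and each replicate pooled 20 embryos from in vitro matured oocytes of slaughterhouse ovaries. The study calls its replicates independent without saying whether they came from separate oocyte collections, and p-values measure the spread between these samples. All embryos of both groups were parthenotes and so carried no paternal genome. In pooled embryos, a lower level in every embryo and a strong loss in some of them cannot be told apart. The libraries were made from poly(A) RNA, and the value given for each gene is the authors' read estimate after normalization between libraries, with no further unit. The question of this comparison is whether transcripts of pluripotency regulators stored in the egg differ in level once SIN3A, the scaffold of a histone deacetylase corepressor complex, is depleted before the porcine genome is activated.

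POU5F1 (OCT4), SOX2 and NANOG encode DNA-binding factors that form the core of the network keeping the epiblast and embryonic stem cells pluripotent. KLF4, KLF5 and KLF17 are zinc finger factors that support the naive state, SALL4 is a zinc finger factor that works with that core, and PRDM14 restrains differentiation and takes part in germ cell specification. OTX2 is a homeodomain factor of the primed epiblast and the anterior head. LIN28A is not a transcription factor but an RNA-binding protein that blocks maturation of let-7 microRNAs. Before genome activation, a transcript of any of them in the embryo is largely a store laid down by the oocyte.

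The estimated depth was 7796996 to 15797713 reads per library, with the fewest in NC replicate 2 and the most in KD replicate 2. KD embryos kept 8.22% of the mean SIN3A mRNA of NC embryos, so the labels of the groups hold for the targeted gene. Oocyte and maternal embryo markers were abundant, and 17 of the 18 found had a mean of at least 10. Their summed values were 153917 to 168571 in NC and 150998 to 178189 in KD libraries. Of 12 cumulus and granulosa markers found, 9 had a mean under 10, and apart from VCAN, which held most of the list, the summed values were 40.2 to 77.8 per library. None of the 12 was at 0 in every library. Of 11 blood and stroma markers, 7 had a mean under 10, and the summed values were 156 to 200 in NC and 123 to 138 in KD libraries, so that every KD library was below every NC library. The part of this difference in the results was not tested. The haemoglobin gene HBB stood at 74.9 in NC replicate 1 and at no more than 1.96 in the other libraries. Without HBB, the sum of NC replicate 1 would fall among those of the KD libraries, so the full separation rested on that value.

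The 3' ends of the genes bear on their measurement, because only mRNA with a poly(A) tail was captured. A change in the poly(A) tail and a change in the amount of an mRNA cannot be told apart in these values. Of the measured genes, 5 have a RefSeq model with a 3' UTR of at least 100 bases, and the last 40 bases of the longest such mRNA were searched on the mRNA strand for the poly(A) signal letters AATAAA and the variant ATTAAA. SALL4 and KLF4 hold AATAAA and OTX2 holds ATTAAA, shown here in capitals within 30 bases read 5' to 3' from the RefSeq genome (Sscrofa11.1), all on the minus strand. Between these letters and the 3' end of the model lie 25 bases in SALL4, 15 in OTX2 and 0 in KLF4. RefSeq has 2 mRNAs for KLF4, and the locus reaches further in the 3' direction, to 248604817. The 0 thus belongs to the mRNA searched.
SALL4, chr17:53082623-53082652: gtctgtctggagAATAAAttttggatggtt
KLF4, chr1:248604837-248604866: actcaaggtgagaattaagttttaAATAAA
OTX2, chr1:186028578-186028607: atgtataattatATTAAAatggttctagca
Neither set of letters was found in this window of the KLF17 and PRDM14 models. Over 17479 genes with such a model, 53.5% hold AATAAA, 14.7% hold ATTAAA and 65.6% hold at least 1 of them. The models of SOX2, KLF5 and LIN28A end at the stop codon and offer no 3' end to search.

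Per kilobase of the longest RefSeq mRNA, the genes fell into separate tiers of transcript level. On this scale, the NC mean of the normalized value was 1389 ± 83.5 (SD, n = 3) for LIN28A, 1270 ± 48.7 for OTX2 and 996 ± 85.4 for SALL4. A second tier held SOX2 at 290 ± 47.3, KLF5 at 215 ± 38.9 and KLF4 at 210 ± 18.6 per kilobase. KLF17 and PRDM14 were far below at 5.49 ± 4.34 and 2.83 ± 2.18, and single libraries weighed on both means. Without NC replicate 2 KLF17 was at 3.37 per kilobase, and without NC replicate 3 PRDM14 was at 1.80. For comparison, the median over 14071 genes with a RefSeq length was 22.9 per kilobase. LIN28A, OTX2 and SALL4 stood above the levels of 97.6%, 97.2% and 96.1% of these genes, SOX2, KLF5 and KLF4 above 84.8%, 81.1% and 80.8%, and KLF17 and PRDM14 above 32.4% and 25.5%. The step from SALL4 down to SOX2 was 3.44-fold, and neither these neighbours nor KLF4 and KLF17 overlapped between NC libraries.

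Within a tier, most neighbours could not be ordered. The NC libraries of LIN28A and OTX2 overlapped, as did those of SOX2 and KLF5, of KLF5 and KLF4, and of KLF17 and PRDM14. OTX2 was above SALL4 in every NC library with the longest mRNAs. With the shortest RefSeq mRNA as the length, OTX2 stood at 1834, SALL4 at 1570 and LIN28A at 1389 per kilobase, so the order of the leading genes depends on the transcript model. Because the models of LIN28A, SOX2 and KLF5 hold the coding sequence only, their levels per kilobase are too high if reads from their UTRs were counted. The place of LIN28A in the upper tier rests on a model of 618 bases and was not tested with a longer one. Before division by length, its mean NC value was 859, against 4950 for SALL4, 4091 for OTX2 and 617 for KLF4.

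**Figure D1:**
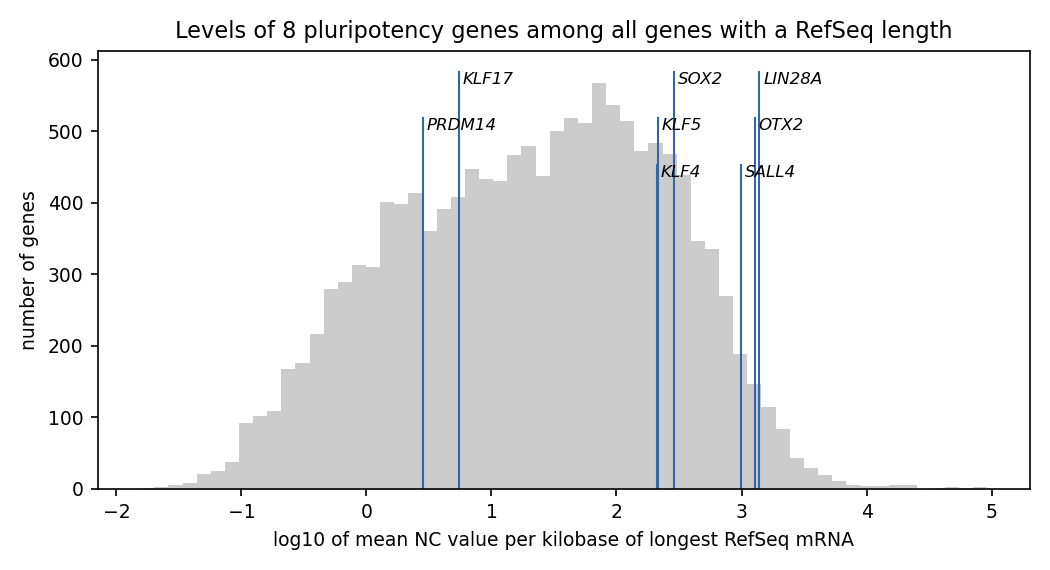
The histogram counts genes (vertical axis) by the log10 of their mean normalized NC value per kilobase of the longest RefSeq mRNA (horizontal axis), leaving out genes at 0, and the blue lines mark 8 of the pluripotency and early embryo genes. LIN28A, OTX2 and SALL4 lie in the right tail, SOX2, KLF5 and KLF4 to the right of the bulk, and KLF17 and PRDM14 in its left part.

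SALL4 (ENSSSCG00000007479), on chromosome 17 from 53082610 to 53103023, had the highest normalized values of the set. They stood at 4934, 5382 and 4534 in NC libraries 1, 2 and 3 and at 5118, 5255 and 4838 in KD libraries 1, 2 and 3. All KD values lay within the range of the NC values. Group means were 4950 ± 424 (SD, n = 3) in NC and 5070 ± 213 in KD embryos. On the log2(value + 1) scale, KD differed from NC by 0.04 (standard error, SE, 0.09, limma adjusted p = 0.997 with Benjamini-Hochberg adjustment over all genes). Its 95% interval allowed a change from -9.74% to 16.7%.

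OTX2 (ENSSSCG00000005063), on chromosome 1 from 186028575 to 186039026, was nearly as highly represented. It stood at 4147, 3914 and 4212 in NC libraries 1, 2 and 3 and at 3642, 3207 and 3998 in KD libraries 1, 2 and 3. The lower KD mean came with an overlap, since KD replicate 3 was above NC replicate 2. Group means were 4091 ± 157 (SD, n = 3) in NC and 3616 ± 396 in KD embryos, or 88.4% of the NC level. The log2 difference of KD from NC was -0.18 (SE 0.09, unadjusted p = 0.0662 and adjusted p = 0.997 in limma), with an interval from -23.2% to 0.955%. The exact two-sided permutation test over the 6 libraries gave p = 0.2, where 0.1 is the smallest p that 3 against 3 allow.

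LIN28A (ENSSSCG00000003557), on chromosome 6 from 83806178 to 83818550, stood at 799, 885 and 892 in NC libraries 1, 2 and 3 and at 798, 1011 and 816 in KD libraries 1, 2 and 3. The groups overlapped, and KD replicate 2 was the highest library. The log2 difference of KD from NC was 0.02 (SE 0.11, limma adjusted p = 0.997), and the 95% interval reached from -14.2% to 19.9%.

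KLF4 (ENSSSCG00000005437), on chromosome 1 from 248604817 to 248609574, stood at 592, 579 and 680 in NC libraries 1, 2 and 3 and at 576, 630 and 595 in KD libraries 1, 2 and 3. The groups overlapped, with a mean of 617 ± 54.8 (SD, n = 3) in NC and 600.1 ± 27.3 in KD embryos. The log2 difference of KD from NC was -0.04 (SE 0.11, limma adjusted p = 0.997), and the 95% interval reached from -17.4% to 15.0%.

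KLF5 (ENSSSCG00000035101), on chromosome 11 from 45370009 to 45386673, had the largest log2 fold change in either direction among the 6 genes tested. It stood at 323, 234 and 329.4 in NC libraries 1, 2 and 3 and at 419, 329.8 and 354 in KD libraries 1, 2 and 3. Every KD value was above every NC value. However, KD replicate 2 exceeded NC replicate 3 by less than the estimated value of a single read in either library (0.718 and 0.853). NC replicate 2, the library with the fewest reads, stood apart at the low end. Group means were 295 ± 53.4 (SD, n = 3) in NC and 368 ± 46.2 in KD embryos, and this difference did not pass the test. The log2 difference of KD from NC was 0.32 (SE 0.16, unadjusted p = 0.0518 and adjusted p = 0.997 in limma), with an interval from -0.196% to 57.2%. The exact two-sided permutation test gave p = 0.1, the smallest p that it can give. Among all genes tested, 4.85% had every KD value above every NC value and 4.94% had every KD value below. Without NC replicate 2 the log2 fold change of KLF5 was 0.17.

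SOX2 (ENSSSCG00000037485) is a gene with a single exon on chromosome 13 from 119668476 to 119669435. It stood at 227, 293 and 314 in NC libraries 1, 2 and 3 and at 274, 240.3 and 295 in KD libraries 1, 2 and 3. All KD values lay within the NC range. Group means were 278 ± 45.4 (SD, n = 3) in NC and 269.7 ± 27.4 in KD embryos, and the log2 difference of KD from NC was -0.04 (SE 0.15, limma adjusted p = 0.997). The interval reached from -22.2% to 22.3%.

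**Figure D2:**
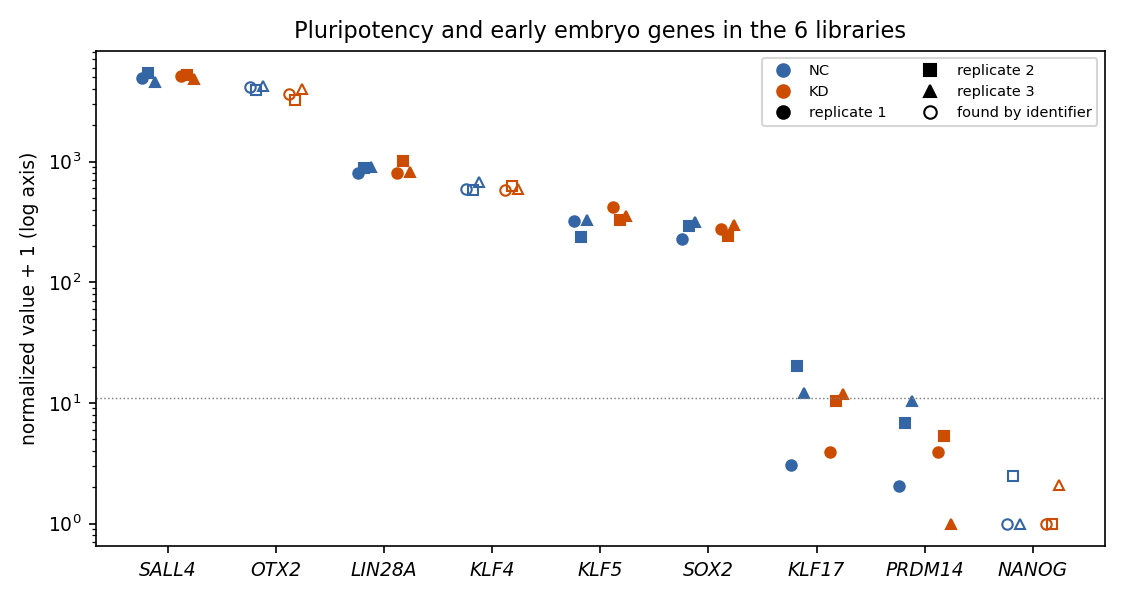
Normalized values plus 1 on a log axis (vertical) for the 9 genes found (horizontal), with NC in blue, KD in orange, a symbol shape for each replicate number and open symbols for genes found by identifier; the dotted line marks a normalized value of 10. The NC and KD points of SALL4, LIN28A, KLF4 and SOX2 interleave, those of KLF5 are the only ones of the 6 genes above the line that do not overlap, and KLF17, PRDM14 and NANOG scatter near or under the line.

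KLF17, PRDM14 and NANOG were close to the limit of detection. KLF17 (ENSSSCG00000024191), on chromosome 6 from 167176834 to 167188418, stood at 2.09, 19.0 and 11.07 in NC libraries 1, 2 and 3 and at 2.92, 9.37 and 10.9 in KD libraries 1, 2 and 3. By the estimated value of a single read, these correspond to about 2 to 13 reads per library, and replicate 1 was the lowest library of each group. PRDM14 (ENSSSCG00000006195), on chromosome 4 from 65273988 to 65295362, stood at 1.04, 5.85 and 9.34 in NC libraries 1, 2 and 3 and at 2.92, 4.32 and 0 in KD libraries 1, 2 and 3.

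NANOG (ENSSSCG00000040403) was listed at 1.48 in NC replicate 2, at 1.09 in KD replicate 3 and at 0 in the other libraries, about 1 read in each of those above 0. RefSeq places NANOG at a locus with introns on chromosome 5 from 62931642 to 62939086 and at a copy of 1 exon on chromosome 1 from 169064134 to 169065292, and each has a coding sequence of 915 bases. Reads from these copies could have been split in the authors' counting, so the NANOG values are uncertain. All 3 genes had a mean under 10 over the 6 libraries and did not enter the limma fit. The exact two-sided permutation test gave p = 0.8 for KLF17, 0.4 for PRDM14 and 1.0 for NANOG. A difference between NC and KD embryos was not detectable for them at this depth, and the values do not show that their transcripts were absent.

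Across the set, none of the 4 named genes with a mean of at least 10 passed an adjusted p of 0.05 in limma, and none had an unadjusted p under 0.05, that is 0 of 4. With OTX2 and KLF4 the counts were 0 of 6 in both. With the replicate number as a block, KLF5 and OTX2 had an unadjusted p under 0.05, that is 2 of 6, and 0 of 6 passed the adjusted p. In that blocked limma fit, 676 of all 11986 genes tested had an unadjusted p under 0.05 and 26 passed the adjusted p. Without the block, 0.159% of all genes tested passed the adjusted p (0.0584% higher and 0.1% lower in KD) and 4.61% had an unadjusted p under 0.05. The median log2 fold change was 0.03 over the 4 named genes and -0.01 over the 6, beside 0.00258 over all genes tested. Of the 6, 1 gene, KLF5, had groups that did not overlap, against 9.79% of all genes. The 95% intervals of SALL4, LIN28A and KLF4 stayed within 20% of no change, whereas that of KLF5 extended to 57.2%.

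**Figure D3:**
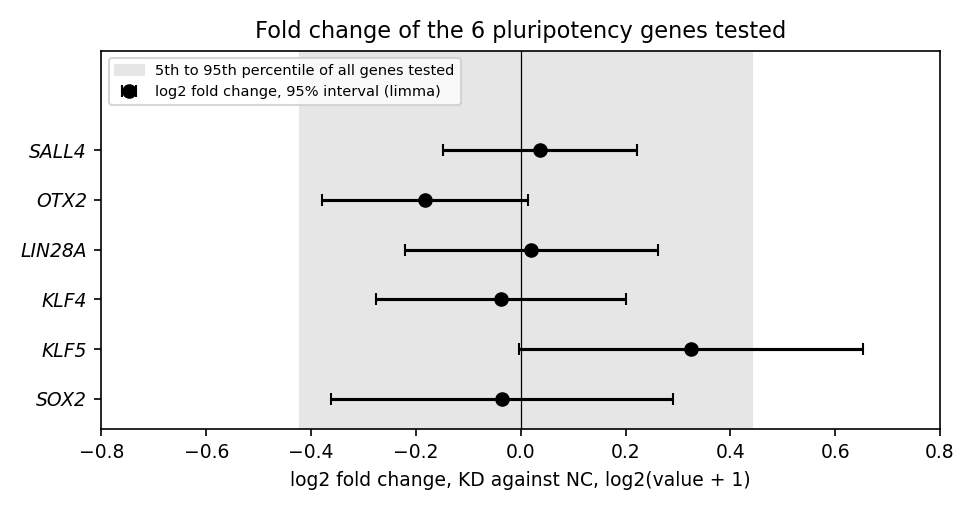
Log2 fold change of KD against NC on the log2(value + 1) scale (horizontal axis) for the 6 genes tested, with points for the limma estimate and bars for its 95% interval; the grey band spans the 5th to 95th percentile of all genes tested, -0.42 to 0.44. Every interval contains 0, and that of KLF5 is the one reaching beyond the band.

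The scatter between replicates was largest for the genes of few reads. Within groups, the SD of the log2 values was 0.10 for SALL4 and KLF4, 0.12 for OTX2, 0.15 for LIN28A, 0.20 for SOX2 and 0.23 for KLF5, against a median of 0.21 over all genes tested. For KLF17 and PRDM14 it was 1.16 and 1.25. The genes whose centred log2 values over the 6 libraries differed least from those of SALL4, among 10889 genes varying at least as much, were SEC61A2, HSP90AB1 and GCLC, with root mean square differences of 0.02, 0.03 and 0.03. They are the closest out of a large search, and whether unrelated genes would come as near was not tested.

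Relatives of these genes were examined in lists of their families and of connected pathways. Of 121 genes found in 10 lists, 88 had a mean of at least 10 and were tested, and none passed an adjusted p of 0.05 in limma in either direction. At an unadjusted p under 0.05 there were 3 of the 88, against 4.61% of all genes. The groups did not overlap for 5 of the 88, against 9.79% of all genes. The median log2 fold change over the 88 genes was 0.03. Unless said otherwise, the relatives named here are from the 3 of each list with the highest mean. CRX, CDX2, LIN28B, ZFP42, TFCP2L1, FOXD3 and MYC stand outside that choice and were added after their values were seen.

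Among KLF relatives, 13 of 13 found were tested and 0 passed in either direction. KLF7 had a mean of 1258 ± 53.4 (SD, n = 3) in NC and 1242 ± 177 in KD embryos, and KLF3 and KLF11 had log2 fold changes of 0.03 and -0.03. The SOX relatives had 8 of 17 genes at a mean of at least 10, led by SOX4, SOX30 and SOX15, with log2 fold changes of 0.07, -0.01 and 0.20. Of the SALL relatives, SALL2 stood at 2457, 2008 and 2341 in NC libraries 1, 2 and 3 and at 2934, 2524 and 2318 in KD libraries 1, 2 and 3. SALL2 thus overlapped between the groups, with a log2 difference of 0.19 (SE 0.11, limma adjusted p = 0.997). SALL3 was much lower, at 61.9 ± 15.1 in NC and 52.1 ± 2.62 in KD embryos, and SALL1 had a mean under 10.

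OTX1 was close to the limit of the test, at 15.8 ± 7.84 (SD, n = 3) in NC and 17.9 ± 5.06 in KD embryos, and CRX, the photoreceptor relative of OTX2, was listed at 2.08 and 1.46 in NC replicates 1 and 2 and at 0 in the other libraries. GSC, a further paired-like gene tested, did not pass. Among PRDM relatives 8 of 13 found were tested and 0 passed. PRDM2 and PRDM4 had log2 fold changes of 0.03 and 0.02. POU relatives were tested for 8 of 14 genes found and 0 passed, with log2 fold changes of 0.13 for POU2F1 and -0.04 for POU4F1. POU6F1, which was found by identifier, had a mean of 203 ± 70.01 in NC and 305 ± 76.0 in KD embryos, with overlapping groups and a log2 fold change of 0.60 (SE 0.22, unadjusted p = 0.0144 and adjusted p = 0.922 in limma).

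Other pluripotency genes gave the same count, with 13 of 21 found tested and 0 passing. STAT3, which carries the LIF signal that sustains naive pluripotency, had a mean of 5994 ± 167 (SD, n = 3) in NC and 6187 ± 144 in KD embryos. DPPA5 and ETV5 had log2 fold changes of -0.04 and -0.04. The factors ZFP42, TFCP2L1, FOXD3 and MYC were found with means under 10. Of 10 factors linked to genome activation, 10 were tested and 0 passed, with log2 fold changes of -0.06 for YAP1 and -0.00064 for CNOT6L.

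The regulators of the first lineages were tested for 13 of 15 genes, and 0 passed. GATA4, which acts in the endoderm lineage, had a mean of 2373 ± 279 (SD, n = 3) in NC and 2411 ± 122 in KD embryos. TFAP2C had a log2 fold change of -0.10. The trophectoderm factor CDX2 was at 14.1 ± 6.30 in NC and 19.2 ± 6.09 in KD embryos. In the pathway that LIN28A acts on, 10 of 10 genes found were tested and 0 passed. AGO2, DICER1 and DGCR8 had log2 fold changes of 0.07, -0.01 and 0.01, and LIN28B, the paralog of LIN28A, had a mean of 110.0 ± 7.62 in NC and 118 ± 37.7 in KD embryos.

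The 3 relatives with an unadjusted p under 0.05 were POU6F1, KLF10 and NFYA, of which KLF10 and NFYA are named after their values were seen. NFYA, the DNA-binding subunit of the CCAAT-binding factor NF-Y, stood at 283, 273 and 285 in NC libraries 1, 2 and 3 and at 172, 183 and 245 in KD libraries 1, 2 and 3. Every KD value was below every NC value, and the log2 difference of KD from NC was -0.50 (SE 0.16, unadjusted p = 0.00534 and adjusted p = 0.679 in limma). KLF10 stood at 14.5, 10.3 and 19.5 in NC libraries 1, 2 and 3 and at 27.0, 21.8 and 40.1 in KD libraries 1, 2 and 3, a log2 difference of 0.96 (SE 0.41, unadjusted p = 0.0309 and adjusted p = 0.997 in limma). The KD values of KLF10 were all above the NC values, at a level of few reads. The largest log2 fold changes in either direction, also named after their values were seen, were 1.07 for POU2F2 (SE 0.56, limma adjusted p = 0.997) and -0.79 for MYCN (SE 0.43, limma adjusted p = 0.997). POU2F2 stood at 3.24, 7.0 and 11.14 in NC libraries 1, 2 and 3 and at 17.4, 12.7 and 14.3 in KD libraries 1, 2 and 3, with every KD value above every NC value.

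**Figure D4:**
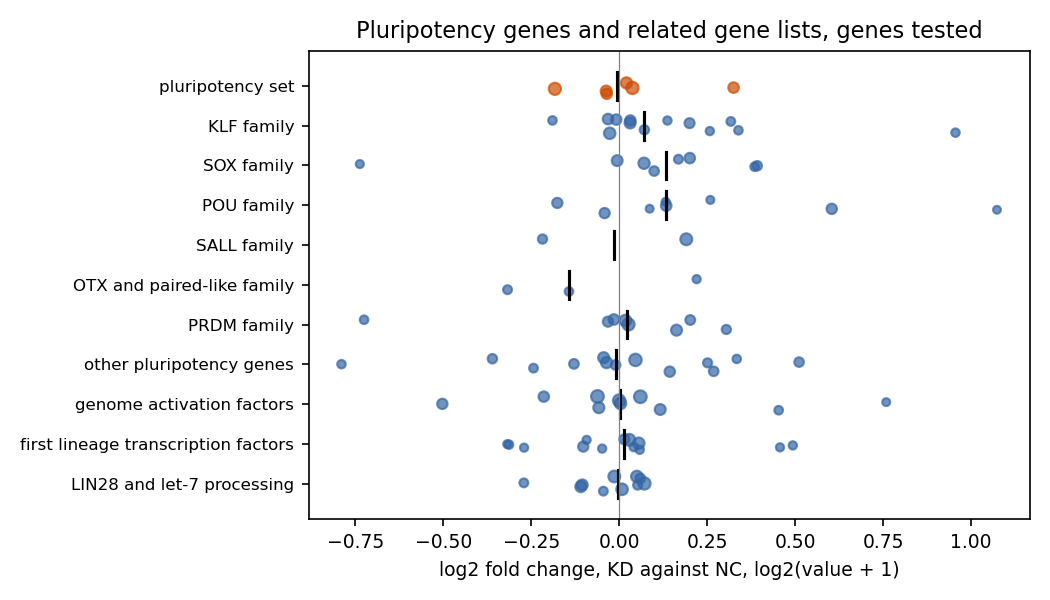
Each dot is a tested gene, placed by its log2 fold change of KD against NC on the log2(value + 1) scale (horizontal axis) and by list (vertical axis, with random spread within a list), the dot area grows with the log10 of its mean, and the black bar is the median of the list. The medians lie between -0.14 and 0.13, and most dots stand within 0.5 of no change, with POU2F2 at 1.07 and MYCN at -0.79 the farthest on either side.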

How the data were processed

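Messenger RNA of 2-cell porcine embryos was measured in 3 NC and 3 KD libraries. Per the labels, the authors assigned reads to Sscrofa11.1 transcripts with Salmon 0.14.1 and used DESeq2. The deposited table holds normalized signal values, namely read estimates per gene after scaling between libraries. Low values lay within 0.1 of a multiple of a single step for 72.4% to 77.0% of genes under 10 steps, which is too few to rebuild read counts, and count tests were left aside. The steps gave the estimated depths. Spike-in mRNA was not used here, so a change of total mRNA per embryo was not assessed.

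The log2(value + 1) of each gene averaging 10 or more entered limma (3.58.1, under R 4.3.3), with a variance trend and Benjamini-Hochberg adjustment over all genes tested. Fold changes on this scale are understated for low values. Exact permutation tests used scipy 1.17.1. The fit was tested on simulated data with planted changes larger than the fold change of any of the 6 genes tested, which says nothing of smaller changes. Tables and figures used Python 3.11.15, numpy 2.4.6, pandas 2.3.3, pysam 0.24.0 and matplotlib 3.10.9. Unnamed identifiers were matched to symbols by an Ensembl name table, and lengths, positions and 3' ends are from RefSeq, matched by symbol for 79.6% of the table's genes. No RefSeq gene shares exon bases with the genes of the set.

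The genes and lists were chosen with earlier results of these data known. Named were all genes of the set found, SIN3A, the 3 highest relatives per list or those passing, and the nearest profiles to the highest gene. Some relatives that this choice names are not reported here. As alternatives, the pseudocount was set to 0.1 or 10, the filter was dropped or raised to 100, values were rescaled by TMM or quantiles, the variance trend was dropped, the replicate number entered as a block, and each library was left out in turn.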

Additional observations from a re-analysis of the deposited data

How the results depend on the processing

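None of the 4 named genes tested passed the adjusted p in any alternative. Leaving out a library turned the direction in 7 of 36 comparisons over the 6 genes. Changing the filter, the variance trend or the block cannot move these fold changes, and the pseudocounts and rescalings turned none. With 1 library omitted at a time, log2 differences spanned -0.024 to 0.099 for SALL4, -0.088 to 0.083 for LIN28A, -0.081 to 0.034 for KLF4, -0.17 to 0.058 for SOX2, -0.26 to -0.10 for OTX2 and 0.17 to 0.41 for KLF5. The direction turned for SALL4 and KLF4 without NC replicate 3, for LIN28A without NC replicate 1 or KD replicate 2, and for SOX2 without NC replicate 2, NC replicate 3 or KD replicate 2. The unadjusted p fell under 0.05 for KLF5 and OTX2 together with the replicate block, for KLF5 alone without the filter and without NC replicate 1, NC replicate 3 or KD replicate 2, and for OTX2 alone without KD replicate 3, with adjusted p values of at least 0.671. Over all genes, 676, 812, 579, 587, 426 and 742 had an unadjusted p under 0.05 in these limma fits, in the same order. The fit without the filter tested more genes than the others.

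Over all genes, 19 passed, 11 to 19 with a library left out and 0 without the variance trend, where 622 had an unadjusted p under 0.05. SIN3A had an adjusted p of 0.423 at -3.81 without the trend. Its fold change was -4.20 to -3.22 with a library left out. The cause was not tested. With the replicate block 26 genes passed, and the block brought none of the 6 genes under the adjusted threshold, with adjusted p values of 0.785 for KLF5 at a log2 fold change of 0.32 and 0.872 for OTX2 at -0.18 in limma. Same-numbered libraries correlated at 0.109, 0.111 and 0.0872 after subtraction of group means, and all 6 correlated best with their own number. That subtraction ties the libraries of a group to one another, so the 6 matches are not independent. They are a hint from the data and not from the design. Levels per kilobase moved with the shortest RefSeq mRNA, to 1834 for OTX2, 1570 for SALL4 and 231 for KLF4, by the shorter length, and ranged from 3.37 to 7.70 for KLF17 and from 1.80 to 3.97 for PRDM14 with an NC library left out. With a mean of at least 100, the count passing stayed at 0 in each list.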
